A study of Homo sapiens with 9 samples.

Results

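The replication-dependent histone genes are 71 of the 58735 genes counted in RNA from p65 knockout HEK293A cells. They were taken by biotype and symbol: every protein-coding gene whose symbol starts with HIST1 to HIST4 followed by the class H1, H2A, H2B, H3 or H4. HEK293A derives from HEK293, a line made from human embryonic kidney. Every library came from cells whose p65, the NF-kB subunit encoded by RELA that activates transcription, had been knocked out. The cells were transfected with a plasmid for p65 2CS, with a plasmid for p65 WT or with vector alone, and 24 h later all of them, vector cells included, received TNF, a cytokine that activates NF-kB, at 20 ng/mL for 2 h. Each group has 3 libraries: p65 2CS has numbers 7 to 9, p65 WT has 4 to 6 and vector has 1 to 3. What 2CS means, what share of the cells took up the plasmid, whether the knockout line is 1 clone and whether the 3 libraries are separate cultures is not in the labels, so the p-values may measure technical spread only. No group without TNF was compared.

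Each nucleosome wraps DNA around a core of histones H2A, H2B, H3 and H4, and the linker histone H1 sits where DNA enters and leaves it. The genes for the replication-dependent forms lie in clusters, are transcribed when DNA is copied, and make mRNAs that end in a short stem-loop in place of a poly-A tail. The protein SLBP binds that stem-loop, and cleavage just after it is made by the U7 snRNP with a complex that includes CPSF2, CPSF3 and SYMPK. Some of these genes also make polyadenylated transcripts that run past the stem-loop. Per the labels' protocols the mRNA was captured by its poly-A tail, so the values below describe whatever histone RNA such a capture retains, not the bulk of stem-loop mRNA in the cell.

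The stem-loop itself is shown for members that the results turn on, because it marks where the mRNA without a poly-A tail ends. It was searched as a 16-base pattern (GG, any 3 bases, TT, any base, T, any base, AG, any 2 bases, CC) in the GENCODE release 29 transcripts (GRCh38), on the transcript's strand, and the matching bases are in capitals with 5 flanking bases on each side. The symbol is followed by the sequence.
HIST1H2AC: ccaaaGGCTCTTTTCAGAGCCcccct
HIST2H2BE: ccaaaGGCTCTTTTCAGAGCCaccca
HIST3H2A: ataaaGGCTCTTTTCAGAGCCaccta
HIST1H2BL: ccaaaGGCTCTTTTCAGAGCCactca
HIST1H2BD: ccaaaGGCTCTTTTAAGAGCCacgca
HIST1H2AG: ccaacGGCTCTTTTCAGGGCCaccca
HIST1H3E: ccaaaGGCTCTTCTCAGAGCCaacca
HIST1H4H: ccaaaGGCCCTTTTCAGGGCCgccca
HIST1H4I: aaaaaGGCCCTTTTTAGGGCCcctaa

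These stretches lie at chr6:26124664-26124689 (plus strand) for HIST1H2AC, chr1:149886183-149886208 (minus) for HIST2H2BE, chr1:228457364-228457389 (minus) for HIST3H2A and chr6:27807479-27807504 (minus) for HIST1H2BL. Those of the others are at chr6:26158582-26158607 (plus) for HIST1H2BD, chr6:27133510-27133535 (plus) for HIST1H2AG, chr6:26225591-26225616 (plus) for HIST1H3E, chr6:26285126-26285151 (minus) for HIST1H4H and chr6:27139649-27139674 (plus) for HIST1H4I. An annotated transcript held such a stem-loop in 32 of the 71 genes. The core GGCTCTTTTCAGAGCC was shared by 17 genes of classes H2A, H2B and H3, and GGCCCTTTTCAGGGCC by 5 genes, all H4. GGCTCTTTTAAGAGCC was found in 5 genes of H2B and H3, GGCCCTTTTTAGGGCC in 3 H4 genes, and the HIST1H3E and HIST1H2AG cores in 1 gene each. Each of the 32 genes was placed by the transcript with the motif that runs furthest past it. In 23 genes that transcript ran more than 100 bases past the stem-loop, by 1655 bases in HIST1H4H, 1729 in HIST2H2BE and 1128 in HIST1H2AC. In 9 it ended within that distance. The transcripts used for HIST1H4H (1 of 4 annotated) and HIST1H2AC (1 of 3) are annotated as subject to nonsense-mediated decay. They need not be the main mRNA of these genes. For the other 39 genes, HIST1H1C and HIST1H2BK among them, no annotated transcript held the motif. The search could not find a stem-loop past the annotated exons, which cover only 642 bases for HIST1H1C and 381 for HIST1H2BK. A missing match therefore does not mean that the gene lacks a stem-loop.

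Library totals were 17146134 to 25068515 counts with p65 2CS, 15989601 to 16507689 with p65 WT and 17923114 to 20162267 with vector. RELA, the check of the labels, averaged 25520 CPM with p65 2CS, 9003 CPM with p65 WT and 67.7 CPM with vector (CPM: counts scaled to a common library size of 1000000 after edgeR's TMM factor). The form of p65 and its level thus cannot be told apart between the 2 p65 groups. All 8 HEK293 marker genes examined were measured above the low-count filter. Of other cells' markers, 2 of 4 for leukocytes, 2 of 3 for endothelium and 1 of 3 for fibroblasts passed it. The summed leukocyte markers were at 3.42 to 3.85 CPM with p65 2CS, 3.04 to 3.52 with p65 WT and 3.31 to 3.54 with vector. The endothelial markers summed to 10.5 to 12.7 CPM with p65 2CS, 33.8 to 38.7 with p65 WT and 7.39 to 7.47 with vector, through CDH5 and VWF with PECAM1 under the filter. Fibroblast markers summed to 47.2 to 50.8, 54.5 to 58.2 and 47.0 to 53.0 CPM in the same order of groups, nearly all of it COL1A1. The part of any of these in the histone values was not tested.

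Histone RNA was a small share of what was counted and was lower with either form of p65. The 71 genes held 0.0172 to 0.0186% of the counts with p65 2CS, 0.0172 to 0.0183% with p65 WT and 0.0258 to 0.0272% with vector. Their summed level was 174.7, 171.5 and 186.7 CPM in the p65 2CS libraries, 179.5, 185.3 and 175.1 CPM in the p65 WT libraries, and 268.9, 254.6 and 263.7 CPM in the vector libraries. Every library with either form of p65 was below the lowest vector library, and the p65 2CS and p65 WT libraries lay among each other. The means were 178 ± 8.01 CPM with p65 2CS, 180 ± 5.07 CPM with p65 WT and 262 ± 7.21 CPM with vector (SD, n = 3 each). The log2 ratio of the sums was -0.56 with p65 2CS and -0.54 with p65 WT, both against vector, and -0.02 between p65 2CS and p65 WT. No test was made of a sum over the genes. In bulk RNA, fewer cells that express these genes and less of their RNA per cell cannot be told apart.

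**Figure D1:**
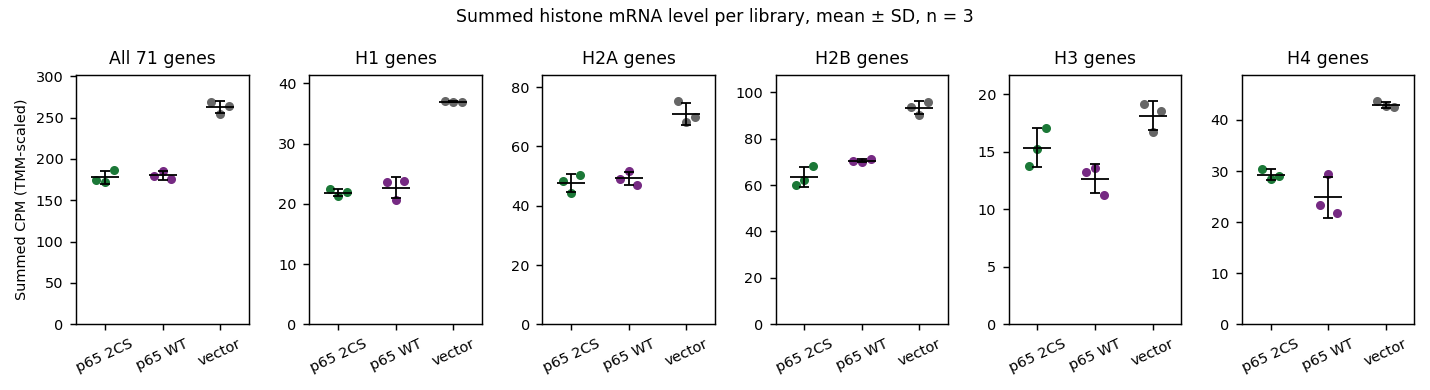
Summed level (TMM-scaled CPM, axes from 0) of all 71 replication-dependent histone genes and of each of the 5 classes, with 1 point per library in the p65 2CS, p65 WT and vector groups, and bars for mean ± SD (n = 3). For all 71 genes the p65 2CS libraries sit at 171.5 to 186.7 and the p65 WT libraries at 175.1 to 185.3, all below the vector libraries at 254.6 to 268.9.

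All 5 classes had a lower mean sum with either form than with vector. Linker histone H1 (6 genes) summed to 21.9 ± 0.57 CPM with p65 2CS, 22.7 ± 1.74 with p65 WT and 36.9 ± 0.09 with vector. H2A (17 genes) was at 47.6 ± 3.0, 49.2 ± 2.30 and 71.1 ± 3.72 CPM in the same groups, and H2B (18 genes) at 63.5 ± 4.37, 70.5 ± 0.65 and 93.3 ± 2.81 CPM. For H1, H2A and H2B every library with either form of p65 was below every vector library. H4 (15 genes) was at 29.3 ± 1.08 CPM with p65 2CS, 24.9 ± 3.98 with p65 WT and 43.0 ± 0.60 with vector, again without overlap with vector. H3 (15 genes) was at 15.4 ± 1.67 CPM with p65 2CS, 12.7 ± 1.24 with p65 WT and 18.1 ± 1.24 with vector, and there a p65 2CS library, at 17.1 CPM, was above the lowest vector library, at 16.7 CPM. H2B made up 35.7% of the histone sum with p65 2CS, 39.2% with p65 WT and 35.6% with vector.

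Few genes made most of this RNA. Members with a mean of 5 CPM or more, 11 in number, held 76.3% of the sum over all libraries. Per kilobase of annotated exon, the most abundant was HIST1H2BK at 80.7 CPM per kb, followed by HIST1H1C at 36.3, HIST3H2A at 29.2 and HIST1H2AC at 10.3. The exons of HIST1H2BK are annotated over 381 bases and those of HIST1H1C over 642, against 1668 for HIST1H2AC, so this order depends on where the annotation ends each gene. Of the 71 genes, 36 passed edgeR's filter on low counts and were tested. The 35 that did not held 2.02% of the summed level, and 7 of them, HIST2H3PS2, HIST1H3D, HIST1H2AD, HIST1H3F, HIST1H2BH, HIST1H2AK and HIST1H2AM, had a count of 0 in every library. Of these 7, HIST2H3PS2, HIST1H3D, HIST1H2AD, HIST1H2AK and HIST1H2AM overlap another annotated gene, so a count of 0 there can also mean that reads were assigned elsewhere or dropped.

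Each tested gene was compared by edgeR's quasi-likelihood test in 1 fit of all 9 libraries, with Benjamini-Hochberg adjustment over 18195 genes and a call at an adjusted p under 0.05. With p65 2CS against vector, 18 of the 36 tested histone genes (50%) fell and 0 rose, where 11.7% of all genes tested fell and 12.3% rose. Nor was any higher at an unadjusted edgeR p under 0.05 or by DESeq2. The gene with the highest fold there was HIST2H4B, at log2 0.90 ± 0.81 and not called. With p65 WT against vector, 19 of 36 (52.8%) fell and 1 rose, where 12.9% of all genes fell and 16.5% rose. The 1 that rose, HIST1H2BL, passed the low-count filter through the p65 WT libraries alone and so had to differ. Among those that fell, HIST2H3D and HIST2H2AA3 reached the filter's cutoff in no p65 WT library. They were tested through p65 2CS and vector libraries, where they were higher, so these calls are no support. The call of HIST2H2AA3 (edgeR adjusted p = 0.0362) was also lost by DESeq2 (adjusted p = 0.0786). It was lost in all 5 fits with 1 library left out that tested it (adjusted p up to 0.124). Over all genes the direction of the calls depended on scaling. With p65 2CS there were 2123 lower and 2245 higher by TMM and 2446 lower and 2007 higher by library totals, and with p65 WT 2350 lower and 3010 higher by TMM and 3753 lower and 2582 higher by totals. The histone calls by totals were 18 lower with p65 2CS, and 20 lower and 1 higher with p65 WT. The median log2 fold of the tested histone genes was -0.51 for p65 2CS and -0.63 for p65 WT against vector, beside -0.002 and -0.02 over all genes tested. These 2 comparisons share the 3 vector libraries. The choice of genes was made with earlier results of these data known, and their counts are a description.

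**Figure D2:**
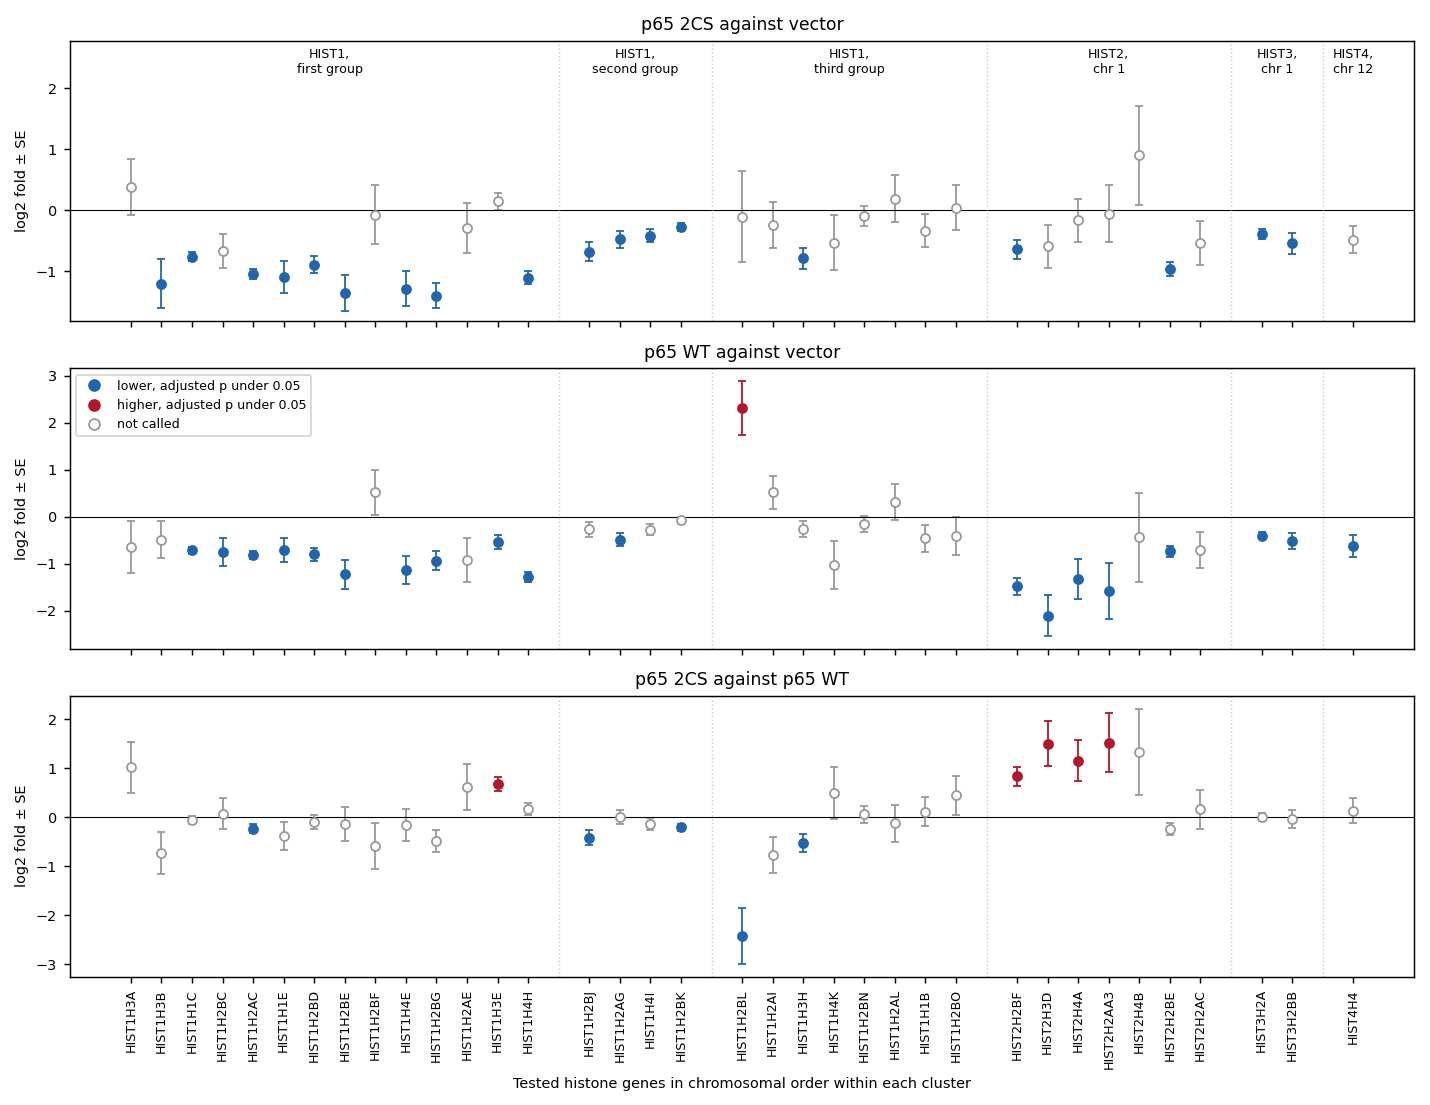
Log2 fold with its standard error (vertical axis) for each of the 36 tested histone genes, in chromosomal order within each cluster (horizontal axis), for p65 2CS against vector, p65 WT against vector and p65 2CS against p65 WT. Filled blue points are lower and filled red points higher at an adjusted p under 0.05. In the comparisons with vector 18 and 19 points are blue, and HIST1H2BL with p65 WT is the 1 red point.

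Among the H1 genes, HIST1H1C (chr6:26055787-26056428, minus strand), which encodes linker histone H1.2, had 19.3, 18.2 and 18.7 CPM in the p65 2CS libraries, 20.2, 17.1 and 20.8 CPM in the p65 WT libraries, and 31.6, 32.4 and 31.2 CPM in the vector libraries. All 6 p65 libraries were below all 3 vector libraries, and the 2 p65 groups overlapped. It fell by 0.77 ± 0.07 (SE) on the log2 scale with p65 2CS (edgeR adjusted p = 4.84e-14) and by 0.71 ± 0.08 with p65 WT (edgeR adjusted p = 8.21e-13). HIST1H1E, encoding H1.4, was at 1.24 ± 0.11 CPM with p65 2CS, 1.61 ± 0.36 with p65 WT and 2.64 ± 0.54 with vector. It fell with p65 2CS (log2 -1.09 ± 0.26) and with p65 WT (log2 -0.70 ± 0.26, edgeR adjusted p = 0.0333), a call that was lost when vector library 3, p65 WT library 4 or p65 WT library 6 was left out (adjusted p up to 0.206). HIST1H1B, encoding H1.5, was not called in either (log2 -0.34 ± 0.27 and -0.45 ± 0.28).

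For the H2A genes, HIST1H2AC (chr6:26124145-26139116, plus strand) had 12.4, 11.7 and 12.3 CPM with p65 2CS, 12.8, 15.3 and 14.7 CPM with p65 WT, and 26.3, 23.1 and 25.8 CPM with vector. The 3 groups did not overlap, and the vector libraries stood well above the rest. Its log2 fold was -1.05 ± 0.09 with p65 2CS (edgeR adjusted p = 1.27e-17) and -0.81 ± 0.09 with p65 WT (edgeR adjusted p = 5.06e-13). HIST3H2A (chr1:228456979-228457873, minus strand), from the small cluster on chromosome 1, had 24.7, 21.6 and 25.03 CPM with p65 2CS, 25.6, 24.5 and 20.5 CPM with p65 WT and 34.0, 29.1 and 30.0 CPM with vector. It too was lower in every p65 library than in vector, by a smaller step: log2 -0.39 ± 0.08 with p65 2CS and -0.40 ± 0.08 with p65 WT (edgeR adjusted p = 3.26e-05 and 1.96e-05). HIST1H2AG (chr6:27133042-27135291, plus strand) had 5.82, 6.32 and 8.12 CPM with p65 2CS, 5.93, 7.16 and 7.05 CPM with p65 WT and 9.87, 10.3 and 8.02 CPM with vector. Its highest p65 2CS library reached the lowest vector library. It fell by 0.48 ± 0.13 with p65 2CS (edgeR adjusted p = 0.00421), a call lost without vector library 2 (adjusted p = 0.0516), and by 0.49 ± 0.14 with p65 WT (edgeR adjusted p = 0.00368).

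H2B holds the most abundant member per kilobase. HIST1H2BK (chr6:27146418-27146798, minus strand) had 25.4, 27.3 and 29.5 CPM with p65 2CS, 30.7, 30.8 and 33.3 CPM with p65 WT, and 34.6, 32.5 and 32.6 CPM with vector. The p65 2CS libraries were the lowest, and the p65 WT libraries overlapped vector. It fell with p65 2CS (log2 -0.28 ± 0.07, edgeR adjusted p = 8.67e-04) and was not called with p65 WT (log2 -0.07 ± 0.07, adjusted p = 0.457). HIST2H2BE (chr1:149884459-149886652, minus strand) had 5.94, 7.63 and 8.48 CPM with p65 2CS, 9.21, 9.76 and 7.29 CPM with p65 WT, and 13.4, 14.6 and 15.5 CPM with vector. Every p65 library was below every vector library, with a log2 fold of -0.97 ± 0.12 for p65 2CS and -0.73 ± 0.12 for p65 WT. HIST1H2BD (chr6:26158146-26171349, plus strand) had 5.64, 5.13 and 5.58 CPM with p65 2CS, 5.99, 6.34 and 5.19 CPM with p65 WT, and 9.61, 10.6 and 10.1 CPM with vector. The p65 groups overlapped each other and lay apart from vector, at log2 -0.89 ± 0.13 and -0.79 ± 0.14. HIST1H2BJ (chr6:27125897-27132750, minus strand) had 4.31, 3.78 and 5.27 CPM with p65 2CS, 6.75, 5.38 and 5.56 CPM with p65 WT, and 7.68, 6.41 and 7.18 CPM with vector. It fell with p65 2CS (log2 -0.68 ± 0.15) and, with a p65 WT library above the lowest vector library, was not called with p65 WT (log2 -0.26 ± 0.15, edgeR adjusted p = 0.201).

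Among less abundant H2B genes, HIST1H2BG fell by 1.41 ± 0.21 with p65 2CS and 0.93 ± 0.20 with p65 WT, and HIST2H2BF by 0.65 ± 0.16 and 1.48 ± 0.18 on the log2 scale. HIST3H2BB, the divergent neighbour of HIST3H2A, fell by 0.54 ± 0.17 and 0.51 ± 0.18. Its call with p65 2CS was lost without vector library 1, p65 2CS library 7 or p65 2CS library 8, and its call with p65 WT without vector library 1 or 3 or p65 WT library 4 or 5 (adjusted p up to 0.174). HIST1H2BN, whose annotated span also covers HIST1H2AL, so that its reads are uncertain, was at log2 -0.10 ± 0.16 and -0.16 ± 0.17 and not called.

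The H3 genes did not all follow the same order of groups. HIST1H3E (chr6:26224199-26227473, plus strand), whose stem-loop core was found in no other member, had 7.16, 9.06 and 10.0 CPM with p65 2CS, 6.56, 6.08 and 3.83 CPM with p65 WT, and 8.16, 7.88 and 7.79 CPM with vector. The p65 WT libraries were the lowest, and the p65 2CS libraries lay on both sides of vector. It was not called with p65 2CS (log2 0.14 ± 0.14, edgeR adjusted p = 0.504) and fell with p65 WT (log2 -0.53 ± 0.15, edgeR adjusted p = 0.0036), a call that was lost without p65 WT library 6 (log2 -0.33, adjusted p = 0.114). HIST1H3H (chr6:27810064-27811300, plus strand) went the other way between the forms, with 3.26, 3.38 and 3.16 CPM with p65 2CS, 4.10, 5.45 and 4.64 CPM with p65 WT and 6.24, 4.99 and 5.80 CPM with vector. It fell with p65 2CS (log2 -0.79 ± 0.17, edgeR adjusted p = 2.36e-04), while its p65 WT libraries overlapped vector (log2 -0.26 ± 0.17, adjusted p = 0.265).

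For H4, HIST1H4H (chr6:26277609-26285638, minus strand) had 10.8, 9.26 and 7.17 CPM with p65 2CS, 8.83, 8.24 and 7.11 CPM with p65 WT, and 20.8, 20.4 and 17.4 CPM with vector. The vector libraries were well apart from both p65 groups, which overlapped. It fell by 1.11 ± 0.11 with p65 2CS (edgeR adjusted p = 6.65e-14) and by 1.28 ± 0.11 with p65 WT (edgeR adjusted p = 3.53e-16). HIST1H4I (chr6:27138588-27139881, plus strand) had 8.496, 8.11 and 9.48 CPM with p65 2CS, 10.0, 9.88 and 8.78 CPM with p65 WT, and 10.9, 12.4 and 11.3 CPM with vector. Its vector libraries were again the highest, by a smaller margin. It fell with p65 2CS (log2 -0.42 ± 0.11, edgeR adjusted p = 0.0036) and was not called with p65 WT (log2 -0.28 ± 0.12, adjusted p = 0.063), where scaling by library totals gave a call (adjusted p = 0.0246). HIST4H4, the lone member on chromosome 12, was at log2 -0.48 ± 0.23 with p65 2CS and not called, and at -0.62 ± 0.24 with p65 WT (edgeR adjusted p = 0.0417), a call that was lost when any 1 of 5 of the 6 libraries compared was left out (adjusted p up to 0.228).

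**Figure D3:**
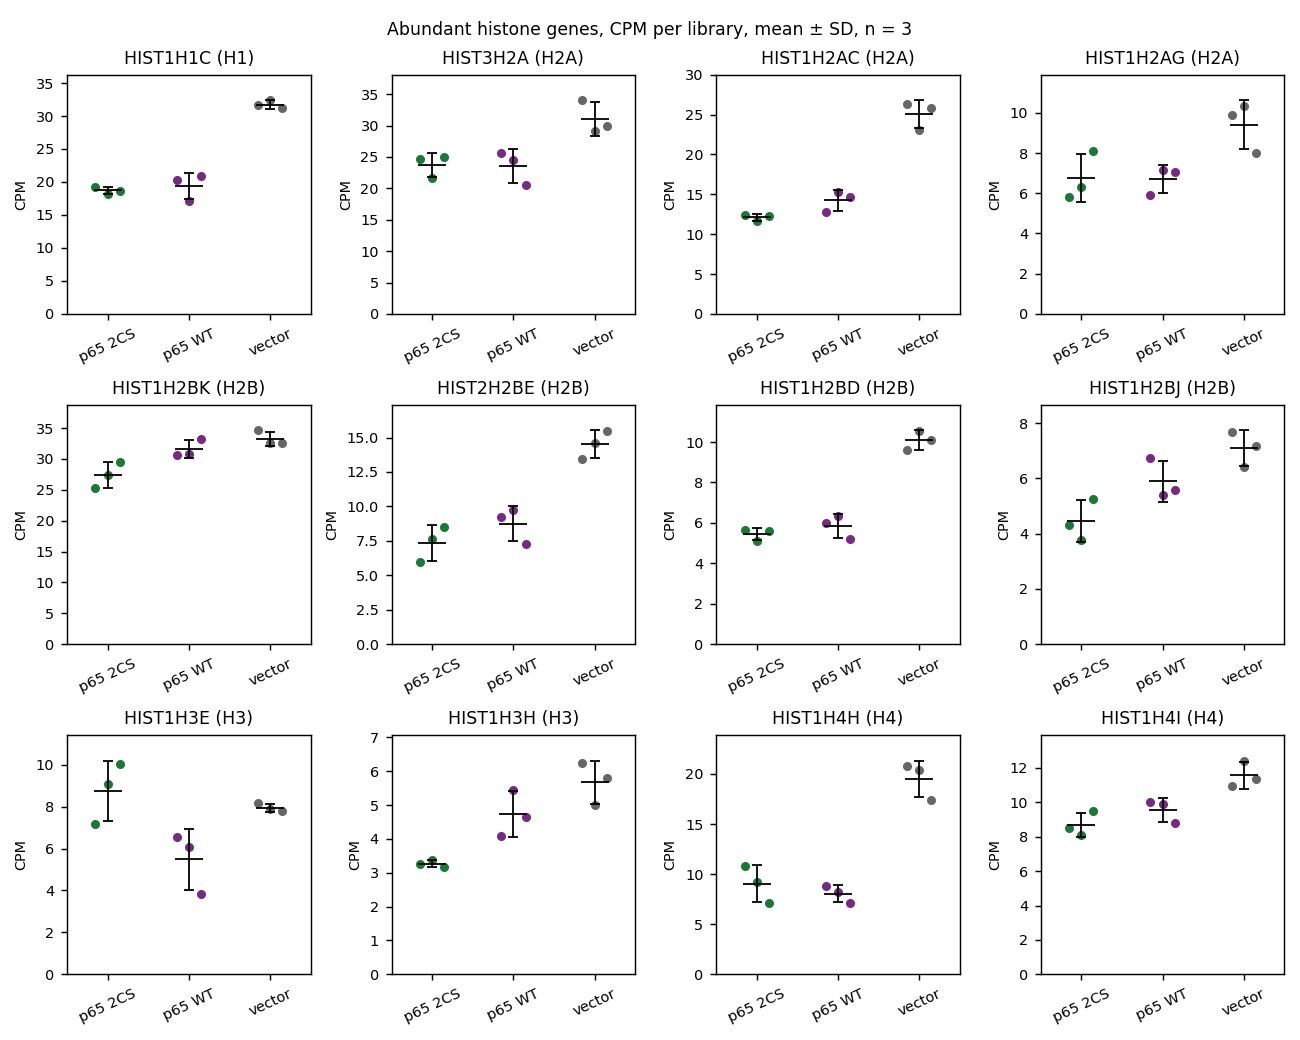
Level (TMM-scaled CPM, axes from 0) of 12 abundant histone genes, 1 point per library in the p65 2CS, p65 WT and vector groups, with mean ± SD (n = 3). The vector libraries of HIST1H4H sit at 17.4 to 20.8 and those of HIST1H2AC at 23.1 to 26.3, above every p65 library, while HIST1H2BK spans only 25.4 to 34.6 over all 9 libraries.

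The size of the difference from vector varied along the clusters. HIST1 on chromosome 6 fell into 3 main groups separated by gaps of over 250 kb. The first (chr6:26017085-26285638, 32 genes, 14 tested) summed to 64.6 ± 1.09 CPM with p65 2CS, 64.2 ± 0.99 with p65 WT and 114 ± 2.25 with vector. In it, 9 of the 14 tested genes fell with p65 2CS and 10 with p65 WT. The second (chr6:27125897-27147515, 5 genes, 4 tested) summed to 47.5 ± 4.53, 54.0 ± 0.76 and 61.6 ± 1.86 CPM, with 4 tested genes lower with p65 2CS and 1 with p65 WT. The third (chr6:27807444-27893843, 16 genes, 8 tested) was at 13.9 ± 0.93 CPM with p65 2CS, 16.4 ± 0.51 with p65 WT and 17.3 ± 1.68 with vector. There 1 gene, HIST1H3H, fell with p65 2CS, and 1, HIST1H2BL, rose with p65 WT. The log2 ratio of the sums with p65 WT was thus -0.83 in the first group, -0.19 in the second and -0.08 in the third, and with p65 2CS it was -0.82, -0.37 and -0.32. Most of the second group's sum was 1 gene, HIST1H2BK, at 27.4 CPM with p65 2CS, 31.6 with p65 WT and 33.3 with vector. The ratio of that group thus leans on this gene. The differences between the groups of genes were not tested. Over all genes tested, 11.7% fell and 12.3% rose with p65 2CS, and 12.9% fell and 16.5% rose with p65 WT.

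The other clusters lie on chromosomes 1 and 12. HIST2 (12 genes, 11 of them at chr1:149782689-149887916) summed to 21.6 ± 1.98 CPM with p65 2CS, 15.9 ± 3.79 with p65 WT and 29.7 ± 3.22 with vector. Of its 7 tested genes 2 fell with p65 2CS and 5 with p65 WT, where 11.7% and 12.9% of all genes tested fell. The 5 include HIST2H3D and HIST2H2AA3, which reached the low-count cutoff in no p65 WT library. HIST3 (chr1:228424845-228460470, 3 genes) was at 27.8 ± 2.37 CPM with p65 2CS, 27.6 ± 1.73 with p65 WT and 36.8 ± 3.16 with vector. The p65 2CS and p65 WT sums of HIST2 overlapped, with 19.4 CPM in p65 2CS library 7 and 20.2 in p65 WT library 5, and HIST2H4B, at 5.29 CPM with p65 2CS and 2.11 with p65 WT and uncertain as described below, is part of the gap between their means. HIST1 as a whole summed to 126 ± 4.26 CPM with p65 2CS and 135 ± 0.60 with p65 WT, beside 193 ± 4.24 with vector. Of the tested protein-coding genes outside the 71, 2 start inside a cluster span. AL031777.3 fell with p65 2CS (log2 -1.20 ± 0.36) and was at log2 -0.89 ± 0.37 with p65 WT (edgeR adjusted p = 0.056). Its span covers all of HIST1H3D and HIST1H2AD on the same strand. Its counts may thus be reads of those histone genes, and it is not a separate neighbour of them. The other of the 2 was not called.

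Between the 2 forms, p65 2CS against p65 WT, 5 of the 36 tested histone genes (13.9%) were lower and 5 were higher, where 18% of all genes tested were lower and 13.7% higher. The median log2 fold was -0.01, beside 0.003 over all genes tested. By library totals the histone split was 3 lower and 5 higher, while that of all genes turned to 2862 lower and 3204 higher, against 3280 and 2488 by TMM. The histone split was by DESeq2 3 and 3, and without p65 2CS library 7 it was 2 and 3. The genes higher with p65 2CS were HIST1H3E and 4 of the HIST2 cluster: HIST2H2BF, HIST2H3D, HIST2H4A and HIST2H2AA3. Those lower were HIST1H2AC, HIST1H2BJ, HIST1H2BK, HIST1H3H and HIST1H2BL, all of HIST1.

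HIST2H2BF (chr1:149782689-149812373, minus strand), an H2B gene, had 4.48, 3.97 and 4.69 CPM with p65 2CS, 2.27, 2.47 and 2.60 CPM with p65 WT, and 6.72, 6.36 and 7.41 CPM with vector. The 3 groups did not overlap, with p65 2CS between p65 WT and vector, and p65 2CS exceeded p65 WT by log2 0.83 ± 0.19 (edgeR adjusted p = 2.46e-04). Its span overlaps AC243772.2 on the same strand and FCGR1A on the opposite strand, so its counts may include reads of those genes. Its neighbour HIST2H3D (chr1:149813271-149813681, minus strand), an H3 gene, had 0.87, 0.79 and 1.05 CPM with p65 2CS, 0.38, 0.25 and 0.31 CPM with p65 WT, and 1.55, 1.27 and 1.27 CPM with vector. The order was the same, at log2 1.503 ± 0.464 between the forms (edgeR adjusted p = 0.00776). HIST2H3D rests on 15, 20 and 20 counts with p65 2CS and 6, 4 and 5 counts with p65 WT. No p65 WT library reached the low-count cutoff of edgeR's filter for it (0.558 CPM). It was thus tested through the p65 2CS and vector libraries, where it was higher. HIST1H3E, given above, was higher with p65 2CS by log2 0.68 ± 0.15 (edgeR adjusted p = 1.34e-04). The calls of HIST2H2BF, HIST2H3D and HIST1H3E between the forms held whichever 1 of the 6 libraries was left out.

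The remaining HIST2 genes come in near-identical copies, so their single values are uncertain. HIST2H4A was at 1.04 ± 0.11 CPM with p65 2CS, 0.46 ± 0.14 with p65 WT and 1.15 ± 0.40 with vector, and its copy HIST2H4B at 4.66, 5.68 and 5.53 CPM with p65 2CS, 0.50, 5.45 and 0.37 CPM with p65 WT, and 2.51, 1.37 and 4.75 CPM with vector. Library 5 of p65 WT thus stood apart from the other p65 WT libraries in HIST2H4B and sat at the p65 2CS level. With all 9 libraries, HIST2H4B was not called (log2 1.34 ± 0.88 for p65 2CS against p65 WT, edgeR adjusted p = 0.322). The same fit of all 9 libraries without robust shrinkage did call it between the forms (adjusted p = 0.00767). Without library 5 the log2 fold was 3.58 for p65 2CS against p65 WT (adjusted p = 1.04e-04) and -2.68 for p65 WT against vector (adjusted p = 0.00234). Summed over both copies, HIST2H4A and HIST2H4B were at 5.76, 6.60 and 6.64 CPM with p65 2CS, 0.88, 5.83 and 0.99 CPM with p65 WT, and 3.42, 2.98 and 5.69 CPM with vector, so adding the copies did not remove the gap. HIST2H2AA3 and HIST2H2AA4 together, both H2A, were at 1.04 ± 0.25 CPM with p65 2CS, 0.46 ± 0.03 with p65 WT and 0.84 ± 0.12 with vector. Like HIST2H3D, HIST2H2AA3 reached the filter's cutoff in no p65 WT library and was tested through p65 2CS and vector libraries. The calls of HIST2H4A (log2 1.16 ± 0.43, edgeR adjusted p = 0.0292) and HIST2H2AA3 (log2 1.52 ± 0.60, edgeR adjusted p = 0.0416) between the forms were both lost without p65 WT library 4 or 5 or p65 2CS library 7, and 1 of them without each of the other 3 libraries (adjusted p up to 0.142).

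Among the genes lower with p65 2CS than with p65 WT, HIST1H2BL (chr6:27807444-27807931, minus strand), an H2B gene chosen for mention after its values were seen, moved furthest. It had 3, 6 and 1 counts with p65 2CS, 16, 14 and 13 counts with p65 WT, and 4, 2 and 4 counts with vector. All p65 WT libraries were above all others. Its log2 fold was -2.43 ± 0.57 for p65 2CS against p65 WT (edgeR adjusted p = 3.62e-04) and 2.32 ± 0.57 for p65 WT against vector (edgeR adjusted p = 7.27e-04). It is the 1 tested histone gene that rose against vector, and also the 1 that reached the low-count cutoff of edgeR's filter (0.558 CPM) in 1 group only, p65 WT. It was tested because it was high there, so its call is a description and no support. The nearby H2B gene HIST1H2BM, under the filter, had 2, 3 and 2 counts with p65 2CS, 10, 2 and 9 counts with p65 WT, and 0, 0 and 1 counts with vector. Without a filter on low counts it was called higher with p65 WT (edgeR adjusted p = 0.00288).

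The other 4 differed by less. HIST1H3H had a log2 fold of -0.53 ± 0.18 (edgeR adjusted p = 0.0174), HIST1H2BJ one of -0.42 ± 0.16 (adjusted p = 0.0382), HIST1H2AC one of -0.24 ± 0.10 (adjusted p = 0.0476) and HIST1H2BK one of -0.20 ± 0.07 (adjusted p = 0.0161). None of these 4 calls held throughout: HIST1H3H lost it without p65 WT library 5, and HIST1H2BK without p65 WT library 6 or p65 2CS library 7. HIST1H2BJ lost it without p65 WT library 4 or p65 2CS library 7 or 8, and HIST1H2AC without any 1 of 5 of the 6 libraries, with adjusted p up to 0.236 over these 4 genes.

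**Figure D4:**
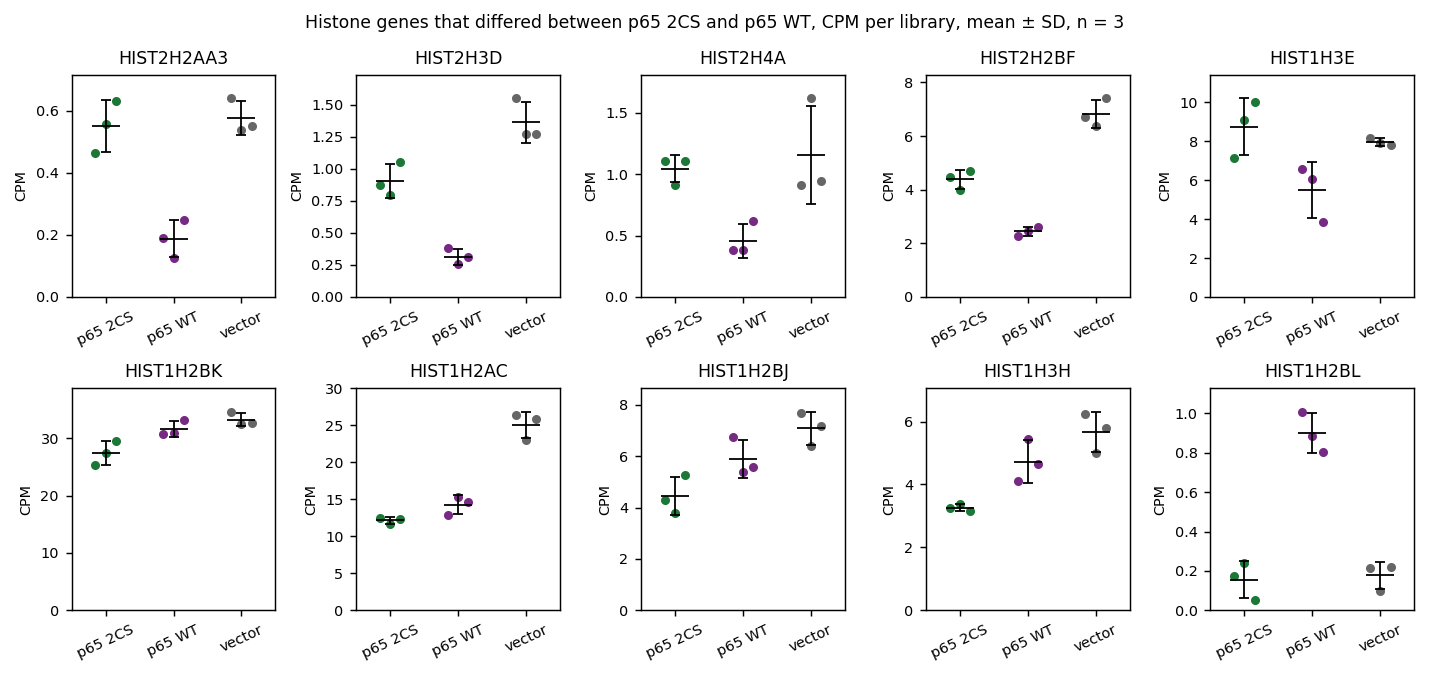
Level (TMM-scaled CPM, axes from 0) of the 10 histone genes called between p65 2CS and p65 WT, 1 point per library, with mean ± SD (n = 3) and vector for comparison. The upper 5 panels are higher with p65 2CS and the lower 5 are lower. HIST2H2BF shows 3 separate levels, and HIST1H2BL is raised in the p65 WT libraries alone (13 to 16 counts each).

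Annotated length and transcript end divided the genes as follows. Members with annotated exons of 1000 bases or more, 21 in number and 17 of them tested, summed to 82.3 ± 3.79 CPM with p65 2CS, 78.7 ± 6.58 with p65 WT and 129 ± 3.08 with vector. Of these, 11 fell with p65 2CS and 12 with p65 WT. The 50 shorter members, 19 of them tested, summed to 95.4 ± 5.0, 101 ± 2.78 and 134 ± 4.27 CPM, with 7 lower with p65 2CS and 7 lower and 1 higher with p65 WT. For transcript end, members were placed by the transcript with the motif that runs furthest past it. Those extending past the stem-loop (19 tested) gave 12 lower with p65 2CS and 14 with p65 WT. Those ending at the stem-loop (5 tested) gave 1 lower with p65 2CS, and 2 lower and 1 higher with p65 WT. The 1 lower with p65 2CS is HIST1H2BD, which was also lower with p65 WT. Its annotated gene runs to position 26171349, past its stem-loop at 26158582-26158607, so its other annotated transcript extends further. The other gene lower with p65 WT is HIST2H2AA3, which reached the filter's cutoff in no p65 WT library. The 1 higher is HIST1H2BL, which had to differ through the filter. Members with no stem-loop in the annotation (12 tested) gave 5 lower with p65 2CS and 3 with p65 WT. This set may hold genes whose annotated exons stop before the stem-loop. The difference between these sets was not tested. Over all genes tested, 11.7% fell with p65 2CS, and 12.9% fell and 16.5% rose with p65 WT.

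How strictly poly-A RNA was selected bears on every value here. Of 23 RNAs known to lack a poly-A tail, 8 (RN7SK, RN7SL1, RMRP, RPPH1, RNU2-2P, RNU11, RNU12 and SCARNA2) were listed at 0 in every library, and the list summed to 11.5 to 15.4 CPM with p65 2CS, 11.1 to 13.4 with p65 WT and 11.6 to 12.8 with vector, mostly RN7SL2. The 2 that passed the filter were not called in any comparison. As for the histone genes, a count of 0 here can also mean that reads were assigned elsewhere or dropped. The zeros therefore cannot show how strict the selection was.

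The promoters of these genes share known elements, and 2 are shown, chosen after the values of their genes were seen. HIST1H2AC fell with p65 WT, and HIST1H2BL is the gene that had to differ there through the filter. The windows are RefSeq promoters on GRCh38.p14, from 250 bases before to 50 after the start, matched for 66 of the 71 genes and all 36 tested. HIST1H3D shares its window with HIST1H2AD, which is nearer to it, and is left out of the counts, so they cover 65 distinct windows. Capitals mark the octamer ATTTGCAT (bound by POU2F1), CCAAT and TATAAA, each searched on both strands. HIST1H2AC is at chr6:26123922-26124221 (plus strand) and HIST1H2BL at chr6:27807880-27808179 (minus strand).
HIST1H2AC: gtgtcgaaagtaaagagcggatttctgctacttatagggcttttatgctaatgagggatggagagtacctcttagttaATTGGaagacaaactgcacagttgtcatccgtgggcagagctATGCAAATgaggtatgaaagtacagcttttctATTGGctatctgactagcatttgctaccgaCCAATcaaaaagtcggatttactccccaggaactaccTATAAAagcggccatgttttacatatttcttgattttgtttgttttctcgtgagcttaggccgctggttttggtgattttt
HIST1H2BL: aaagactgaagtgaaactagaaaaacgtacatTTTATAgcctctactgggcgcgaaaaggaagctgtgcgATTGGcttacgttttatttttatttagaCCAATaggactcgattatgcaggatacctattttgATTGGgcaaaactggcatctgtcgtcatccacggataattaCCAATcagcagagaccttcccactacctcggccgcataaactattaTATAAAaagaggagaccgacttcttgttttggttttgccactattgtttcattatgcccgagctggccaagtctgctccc

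The HIST1H2AC window holds 1 octamer, 3 CCAAT matches and 1 TATAAA, and that of HIST1H2BL 0 octamers, 4 CCAAT and 2 TATAAA matches. Among other H2A and H2B genes called lower with both forms, HIST2H2BE, HIST1H2AG, HIST1H2BE, HIST1H2BG and HIST2H2BF have the octamer. HIST1H2BD, HIST3H2A and HIST3H2BB lack it. The H1 and H4 genes called lower with both, HIST1H1C, HIST1H1E, HIST1H4E and HIST1H4H, lack it too. A link between the octamer and the direction of a gene was not tested. The octamer was in 25 of the 65 promoters (38.5%), 11 of 16 for H2A and 14 of 18 for H2B, and in 1.77% of all 34943 distinct RefSeq promoters. Windows of close genes on opposite strands can overlap, as those of HIST1H2AC and HIST1H2BC do. A site in the shared bases, such as the octamer of this pair, is then counted for both genes, so the counts are not of separate sites. CCAAT was in 55 (84.6%), every H1, H2A, H2B and H3 promoter matched but only 3 of 13 H4 promoters, and in 34.6% of all. TATAAA was in 44 (67.7%) and in 11.6% of all. The NF-kB consensus was matched in 3 (4.62%), HIST1H4I, HIST1H4J and HIST1H4K, and in 5.9% of all promoters. These matches are descriptions of the sequence in the window, not of binding.

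Many H2A and H2B genes are arranged head to head, with their starts close together. HIST1H2BC and HIST1H2AC, 218 bases apart, had log2 folds of -0.67 ± 0.28 and -1.05 ± 0.09 with p65 2CS and -0.74 ± 0.30 and -0.81 ± 0.09 with p65 WT. The call of HIST1H2BC with p65 WT (edgeR adjusted p = 0.0491) was lost whichever 1 of the 6 libraries was left out, with adjusted p up to 0.155. HIST3H2A and HIST3H2BB, 233 bases apart, have their folds given above. HIST1H2BG and HIST1H2AE, 282 bases apart, were at log2 -1.41 ± 0.21 and -0.29 ± 0.41 with p65 2CS, and -0.93 ± 0.20 and -0.91 ± 0.46 with p65 WT, with HIST1H2AE not called. HIST1H2BJ and HIST1H2AG, 291 bases apart, were at log2 -0.42 ± 0.16 and 0.01 ± 0.14 between p65 2CS and p65 WT, with HIST1H2AG not called. For HIST1H2BL and HIST1H2AI, 267 bases apart, with p65 WT against vector HIST1H2AI was at log2 0.52 ± 0.36 and not called, beside 2.32 ± 0.57 for HIST1H2BL. Differences within pairs were not tested. HIST2H2BE was called with both forms, while its partner HIST2H2AC, at 1.06 CPM over all libraries, was at log2 -0.54 ± 0.36 with p65 2CS and -0.70 ± 0.38 with p65 WT and not called.

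Genes that make and process histone mRNA gave mixed calls. Of 21 tested, 5 fell and 4 rose with p65 2CS, and 4 fell and 3 rose with p65 WT. Over all genes tested, 11.7% fell and 12.3% rose with p65 2CS, and 12.9% fell and 16.5% rose with p65 WT. Between the forms, 18% of all genes tested were lower and 13.7% higher with p65 2CS. SLBP was at 115 CPM with p65 2CS, 115 with p65 WT and 132 with vector (log2 -0.20 ± 0.04 in each comparison with vector). CPSF2, a subunit of the cleavage complex, was at 85.5 CPM with p65 2CS, 152 with p65 WT and 60.4 with vector. It rose by log2 0.50 ± 0.04 with p65 2CS and 1.33 ± 0.04 with p65 WT, and it was lower with p65 2CS than with p65 WT (log2 -0.83 ± 0.04, edgeR adjusted p = 4.57e-31). ZNF473, which takes part in U7-dependent processing, was at 59.1 CPM with p65 2CS, 41.4 with p65 WT and 48.4 with vector. It rose with p65 2CS (log2 0.29 ± 0.05) and fell with p65 WT (log2 -0.23 ± 0.06). The octamer-binding factor POU2F1 was at 63.7, 55.5 and 63.5 CPM in the same groups and fell with p65 WT (log2 -0.19 ± 0.05). Between the forms 4 of the 21 were lower and 8 higher with p65 2CS, led by ZNF473 (log2 0.51 ± 0.06) and CASP8AP2, a component of the histone locus body (log2 0.28 ± 0.05). Of 8 genes of histone mRNA decay, 2 rose with p65 2CS (DCP2, log2 0.11 ± 0.04, and XRN1, log2 0.15 ± 0.05), and with p65 WT SMG1 fell (log2 -0.16 ± 0.05) and DCP2 rose (log2 0.17 ± 0.04).

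The histone genes listed as replication-independent, tested in the same fit, gave more calls with p65 2CS than with p65 WT. Of 11 tested, 8 fell with p65 2CS (median log2 -0.19), and 3 fell and 1 rose with p65 WT (median log2 -0.05). Over all genes tested, 11.7% fell with p65 2CS, and 12.9% fell and 16.5% rose with p65 WT. H1F0, the linker variant H1.0, was at 174 CPM with p65 2CS, 151 with p65 WT and 212 with vector (log2 -0.29 ± 0.04 and -0.49 ± 0.04). H3F3A, encoding H3.3, was at 232, 279 and 271 CPM and fell with p65 2CS (log2 -0.23 ± 0.03). Between the forms 6 of the 11 were lower and 1, H1F0, was higher with p65 2CS, beside 18% and 13.7% of all genes tested.

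Genes of the G1/S transition and S phase, in which replication-dependent histone mRNA is made, did not move as 1 block. Of 30 tested, 11 fell and 2 rose with p65 2CS (median log2 -0.08), and 6 fell and 7 rose with p65 WT (median log2 0.004). Over all genes tested, 11.7% fell and 12.3% rose with p65 2CS, and 12.9% fell and 16.5% rose with p65 WT. CCND1, cyclin D1, was at 82.3 CPM with p65 2CS, 90.2 with p65 WT and 103 with vector, and RRM2, a ribonucleotide reductase subunit, at 106, 117 and 129 CPM. Both fell with either form (CCND1 log2 -0.33 ± 0.04 and -0.19 ± 0.04, RRM2 log2 -0.29 ± 0.04 and -0.14 ± 0.04). PCNA, the replication clamp, was at 305, 367 and 328 CPM and fell with p65 2CS (log2 -0.10 ± 0.03) but rose with p65 WT (log2 0.16 ± 0.03), as MCM7 did with p65 WT (log2 0.20 ± 0.02). Between the forms 14 of the 30 were lower and 3 higher with p65 2CS, beside 18% and 13.7% of all genes tested. Of 16 histone chaperone and import genes, 6 fell and 3 rose with p65 2CS and 5 fell and 1 rose with p65 WT, with RBBP7 at log2 -0.16 ± 0.03 and -0.37 ± 0.03 and NASP, an H3 and H4 chaperone, at -0.13 ± 0.03 and -0.15 ± 0.03. The part of any of these genes in the histone values was not tested.

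**Figure D5:**
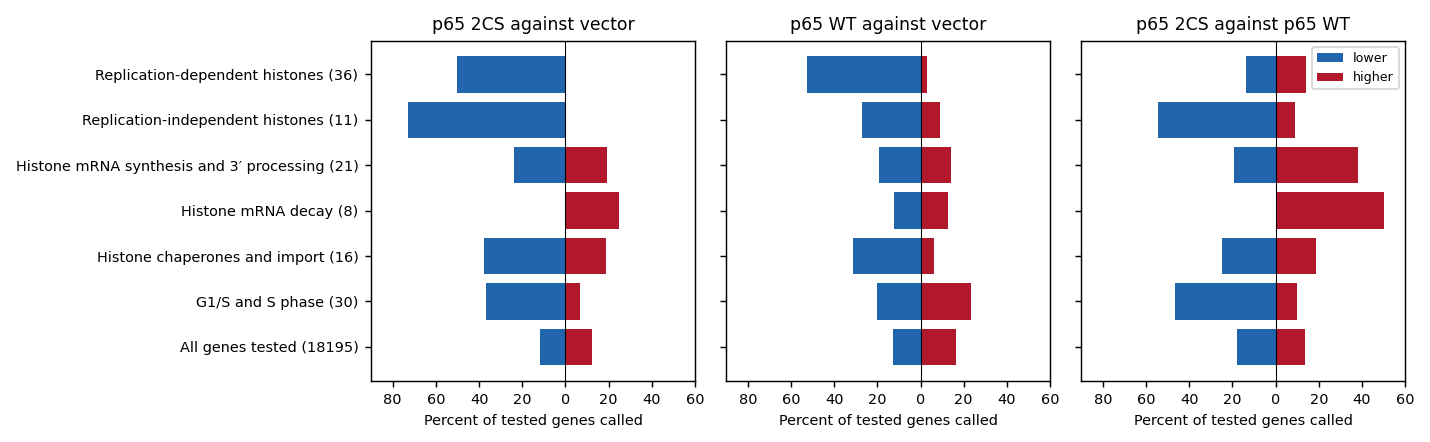
Percent of the tested genes of each list called lower (blue, to the left) or higher (red, to the right) at an adjusted p under 0.05 by edgeR, for p65 2CS against vector, p65 WT against vector and p65 2CS against p65 WT, with the number tested beside each list name. Replication-dependent histones show 50% lower with p65 2CS and 52.8% lower with p65 WT, where all 18195 genes tested show 11.7% and 12.9%.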

How the data were processed

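Per the labels' protocols, RNA of 9 libraries was captured by poly-A, fragmented and primed at random; whether strand was kept is not stated. The submitters' processing notes name HISAT2 2.0.5. Neither the counter nor the genome build is named in the sources used here. The authors deposited raw counts per gene, as whole numbers without normalization. All 58735 identifiers, positions and symbols equalled those of GENCODE release 29, so GRCh38 coordinates are given by that match.

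Genes were filtered with filterByExpr, scaled by TMM and tested with edgeR 4.0.16 (glmQLFit with robust shrinkage, glmQLFTest, R 4.3.3) in 1 fit with a mean per group, checked on simulated counts. P-values were adjusted over 18195 genes. Sums use all 71 genes, also those under the filter. For counting error only, 0 reads in a whole group leave room for 3 counts: 0.049 CPM with p65 2CS, 0.0616 with p65 WT and 0.053 with vector. Replicate libraries differed by more than sampling noise (chi-square per degree of freedom 1.91 to 2.64). Of the 36 tested genes 7 overlap another annotated gene: HIST2H2BF, HIST2H4A, HIST2H4B, HIST1H2BD, HIST1H2BE, HIST1H2BN and HIST1H2AL. For 6 of them a gene on the opposite strand overlaps, and with an unknown strand setting their reads cannot be told apart.

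Values per library are given for members called against vector with both forms or between the forms with a mean of 5 CPM or more, and for the most abundant member per kb of each class. From 2 CPM members are named by fold. HIST2H2BF and HIST2H4B, given per library, and members under 2 CPM were chosen after their values were seen. Of each other list, up to 3 genes per direction with the smallest adjusted p were named. The members and lists were chosen with earlier results of these data known. Library totals, DESeq2 1.42.0, no filter, 2-group fits, left-out libraries and a fit without robust shrinkage were alternatives.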

Additional observations from a re-analysis of the deposited data

How the results depend on the processing

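No gene changed direction among called values under library totals, DESeq2, no filter, 2-group fits, left-out libraries or a fit without robust shrinkage (the last chosen after seeing the data): of 1176 repeated values of the 36 tested genes, 1095 stayed on their side of the threshold, 75 lost a call and 6 gained one. The 1176 include values not called in the main fit, which could not lose a call. Only repeats of the main fit's 18, 20 and 10 calls could, so 1095 overstates how stable the calls were. With 1 library left out, histone calls were 17 for p65 2CS against vector, 15 to 18 for p65 WT against vector and 5 to 8 for p65 2CS against p65 WT. In the last of these DESeq2 gave 6 calls, against 10, and its 17 and 15 for the other comparisons stayed within 1.5 times of 18 and 20. The log2 ratio of summed CPM was -0.60 to -0.54 for p65 2CS and -0.56 to -0.52 for p65 WT against vector, and -0.06 to 0.01 between the forms, with 1 library left out. Weighting all 71 genes alike, as the mean of log2(CPM + 0.5), gave -0.21 for p65 2CS and -0.26 for p65 WT, since by construction the many genes near 0 then count as much as abundant ones. Library totals shifted the median log2 fold of all genes by less than 0.1. No paired analysis was possible because the groups share no replicate numbers. Depth limits the members with a mean under 1 CPM, which have at most 33 counts in any library, and near-identical copies may have had reads split or dropped. The labels do not give p65 protein levels or cell cycle phase.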
